A study of Mus musculus with 6 samples.

Results

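The imprinted protein-coding genes Asb4, Calcr, Dlk1, Mest, Blcap, Cdkn1c, Plagl1, Igf2r, Peg3 and Ndn were followed in RNA from serotonin neurons of the midbrain and brainstem. They are 10 of the 18194 genes that the arrays measured with a probe set of a single gene symbol, and they were read by all 26 probe sets that carry 1 of the 10 symbols alone. The genes were picked with their IP and unbound values already known, so the differences between the groups are given for them as a description, without a test. The 6 samples, each on an Affymetrix mouse array, came from translating ribosome affinity purification (TRAP), which uses a tag on ribosomes to pull ribosome-bound RNA of chosen cells out of a tissue lysate. The IP group was 3 samples of RNA affinity-purified from serotonin neurons, and the unbound group was 3 samples of the RNA that stayed in the lysate of the same preparations and stands for the whole tissue. The mice of both groups were of the Slc6a4 JD60 line, which carries a transgene on a bacterial artificial chromosome, on a mixed FVB and C57BL/6J background. Each sample pooled midbrain and brainstem, without cerebellum, from 5 adult mice of both sexes, aged 6 to 12 weeks. Which cells are purified is set by the Slc6a4 (serotonin transporter) transgene in this 1 line, and the tissue was cut at the border between pons and hypothalamus.

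Imprinted genes are used mainly from the allele inherited from 1 parent, and they lie in clusters in which a methylated control region and often a long noncoding RNA set which allele is active. Several of them act in fetal growth, placenta and metabolism, and in the brain many are known from the hypothalamus and from monoamine nuclei. Dlk1, Mest, Plagl1, Peg3 and Ndn are paternally expressed, Asb4 and Cdkn1c are maternally expressed, Calcr is used mainly from the maternal allele in mouse brain, Blcap has promoters that differ in the allele they use, and Igf2r is maternally expressed in most mouse tissues but used from both alleles in neurons. The arrays do not tell the alleles apart, so every value below is the sum over both.

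The promoter sequences of 4 of the genes are shown because they hold motifs of zinc finger proteins tied to imprinting. RefSeq windows on build GRCm38.p6, each 300 bases long and spanning an annotated start, mostly upstream of it, were at hand for 9 of the genes as 13 windows. The motifs searched, on both strands, were TGCCGC, bound in its methylated form by ZFP57, a protein that keeps methylation at imprinting control regions, GGGGCCCC, bound by PLAGL1 itself, and the longer motif described for PEG3. TGCCGC or its reverse complement GCGGCA lay in 4 of the 13 windows, in Calcr, Plagl1 and 2 overlapping windows of Mest, and in 11.6% of all 32851 windows of the same length. GGGGCCCC, which reads the same on both strands, lay in 1 window, that of Peg3, and in 1.08% of all windows, and the PEG3 motif lay in none of the 13 and in 0.484% of all. The 4 windows below are written 5′ to 3′ on the strand of the gene, with the motif in capitals, and a match says only that the letters are there.
Calcr, inner of its starts, minus strand, chr6:3763574-3763873: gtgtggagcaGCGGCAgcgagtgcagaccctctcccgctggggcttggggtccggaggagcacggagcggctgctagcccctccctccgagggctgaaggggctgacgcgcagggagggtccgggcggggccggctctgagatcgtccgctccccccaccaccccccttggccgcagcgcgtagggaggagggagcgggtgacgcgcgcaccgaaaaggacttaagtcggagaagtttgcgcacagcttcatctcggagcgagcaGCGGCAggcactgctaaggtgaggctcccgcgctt
Mest, plus strand, chr6:30737800-30738099: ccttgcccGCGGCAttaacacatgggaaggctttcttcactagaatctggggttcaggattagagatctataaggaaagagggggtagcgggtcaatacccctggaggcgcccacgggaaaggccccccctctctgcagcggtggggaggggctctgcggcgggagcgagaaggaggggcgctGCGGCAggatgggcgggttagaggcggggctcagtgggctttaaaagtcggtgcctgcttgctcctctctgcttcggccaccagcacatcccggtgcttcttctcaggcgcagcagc
Plagl1, plus strand, chr10:13090582-13090881: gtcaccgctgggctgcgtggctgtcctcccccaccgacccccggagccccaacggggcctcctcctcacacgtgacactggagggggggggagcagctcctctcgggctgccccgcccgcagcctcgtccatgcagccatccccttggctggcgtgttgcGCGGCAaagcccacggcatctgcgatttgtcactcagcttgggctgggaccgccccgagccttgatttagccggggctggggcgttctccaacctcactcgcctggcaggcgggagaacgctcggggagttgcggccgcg
Peg3, minus strand, chr7:6730370-6730669: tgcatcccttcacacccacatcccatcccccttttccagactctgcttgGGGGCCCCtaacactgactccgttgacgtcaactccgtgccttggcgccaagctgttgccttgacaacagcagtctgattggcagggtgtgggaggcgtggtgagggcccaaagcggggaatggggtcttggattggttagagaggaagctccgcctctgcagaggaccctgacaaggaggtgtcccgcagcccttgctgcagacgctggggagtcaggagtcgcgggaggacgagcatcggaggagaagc
The Calcr and Mest windows each hold GCGGCA at 2 places and the Plagl1 window at 1. They hold 29 CpG in Calcr, 26 in Plagl1, 17 in Mest and 13 in Peg3. The median over the 13 windows was 13 CpG and their upper quartile 17, against a median of 7 and an upper quartile of 20 over all windows.

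Expression values are the deposited log2 signals, after a shift of the IP arrays by the biotinylated hybridisation controls described under the processing. A log2 value of 5 served as a detection limit, and a gene was read by the probe set with the highest mean. Within groups, arrays correlated across probe sets at a Pearson's r of 0.996 to 0.999 (IP) and 0.994 to 0.997 (unbound), and across groups at 0.924 to 0.932. The label was checked on marker genes. Slc6a4, the gene whose transgene marks the cells, averaged 14.20 ± 0.12 on the IP arrays and 9.05 ± 0.07 on the unbound arrays (SD, n = 3 each, log2), and all 9 tested serotonin neuron markers were higher in IP, with a summed linear signal of 123595 to 144405 in IP and 3929 to 4857 in unbound arrays. Markers of other cells fell in IP in 9 of 9 tested astrocyte genes, 7 of 7 oligodendrocyte genes, 7 of 7 vascular genes, 5 of 6 microglial genes (Aif1 being higher) and 6 of 6 genes of catecholaminergic neurons. By the same rule (limma, adjusted p under 0.05 and at least 2-fold), 10.4% of all 10582 tested genes were higher in IP and 41.1% lower. The astrocyte gene Sox9, the oligodendrocyte gene Olig2, the microglial gene Cx3cr1 and the noradrenaline transporter gene Slc6a2 were below the limit on all IP arrays. The summed astrocyte signal was 2449 to 2787 in IP and 17445 to 25906 in unbound arrays, and the summed oligodendrocyte signal was 16636 to 24696 in IP and 73112 to 85084 in unbound arrays. Of the hypothalamic peptide genes next to the dissection border, Hcrt, Avp and Oxt were below the limit in both groups, and Pmch was below it in IP and had 5.36, 6.96 and 5.36 in unbound arrays. These shifts between cell types move with every difference below, and their part in any gene's value was not tested. In such bulk samples, fewer cells of a type and less RNA per cell cannot be told apart.

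The 10 genes fell into a higher, a lower and a near-equal set. By the calls of the fit over all genes (limma, adjusted p under 0.05 and at least 2-fold), Asb4, Calcr, Dlk1, Mest and Blcap, 5 of 10, were higher in IP, where 10.4% of all 10582 tested genes were. Cdkn1c, Plagl1 and Igf2r, 3 of 10, were lower, where 41.1% of all tested genes were, and Peg3 and Ndn were not called. Nothing is read from these counts, since the contrast chose the genes. All 10 passed the filter of at least 3 arrays at the limit, but Calcr passed it through its IP arrays alone, and Cdkn1c and Igf2r through their unbound arrays alone. The median difference, IP minus unbound on the log2 scale, was -0.65 over all tested genes. Over the 10 genes it was 0.82, from which nothing is read for the same reason. That value includes Calcr, Cdkn1c and Igf2r, whose differences rest on values below the limit.

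Calcr encodes the calcitonin receptor, a G-protein-coupled receptor that also forms amylin receptors with the RAMP accessory proteins. The gene spans chr6:3685678-3764713 and had 1 probe set. Its log2 values were 7.29, 7.16 and 7.16 on the IP arrays, against 2.32, 2.32 and 2.20 on the unbound arrays. Every unbound array was below the limit, so Calcr is given only as at least 4.60-fold higher in IP. All 3 IP arrays were above the limit and close to each other.

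Dlk1 encodes a transmembrane protein with EGF repeats, related to the Notch ligands, that is known for holding back adipocyte differentiation. It spans chr12:109452485-109463336. On its brightest probe set the log2 values were 12.29, 12.34 and 12.77 in IP, against 9.20, 9.48 and 9.47 in unbound RNA, a difference of 3.09 ± 0.17 (SE), or 8.49-fold. On its other probe set they were 10.17, 8.63 and 8.04 in IP, against 3.29, 3.28 and 3.28 in unbound RNA, at least 15.4-fold. Both probe sets kept the groups apart, but the second spread by over 2 log2 units among the IP arrays, with replicate 1 the highest, while the first had replicate 3 the highest.

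Asb4 encodes an ankyrin-repeat protein with a SOCS box, the part through which ASB proteins bring targets to a cullin-5 ubiquitin ligase. It spans chr6:5383386-5433022. Its brightest probe set had 9.45, 9.24 and 9.44 in IP, against 6.05, 6.05 and 6.16 in unbound RNA, a difference of 3.28 ± 0.07 (SE), or 9.74-fold. The other probe set also had its IP values above its unbound values, with a difference of 1.35 ± 0.19 (SE), so the probe sets gave the same direction and unequal sizes.

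Mest, also called Peg1, encodes a membrane protein of the alpha/beta hydrolase fold. It spans chr6:30733506-30748466 and had 1 probe set, with 8.38, 7.82 and 8.06 in IP, against 6.77, 6.32 and 6.41 in unbound RNA. The difference was 1.58 ± 0.20 (SE), or 3.00-fold, and the groups did not overlap. Blcap encodes a small membrane protein whose transcripts are edited by adenosine deaminases, and Nnat lies within its intron. It spans chr2:157556362-157566361 and had 12.36, 12.44 and 12.27 in IP, against 10.69, 11.0 and 11.01 in unbound RNA. That is a difference of 1.45 ± 0.11 (SE), or 2.74-fold, again without overlap.

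**Figure D1:**
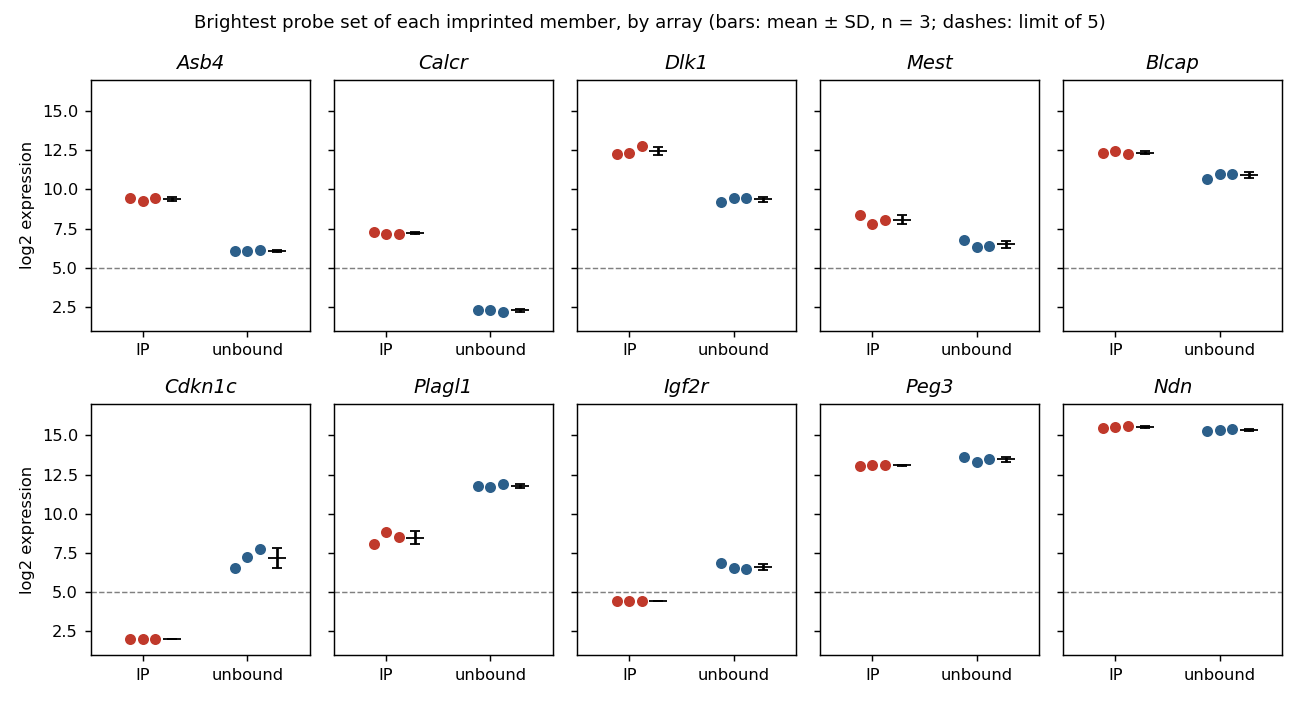
Log2 expression (y axis) of the brightest probe set of each of the 10 imprinted genes on the 3 IP arrays (red, left) and the 3 unbound arrays (blue, right), with the mean and SD beside the points and a dashed line at the limit of 5. The upper row holds the genes higher in IP, from Asb4 to Blcap, and the lower row Cdkn1c, Plagl1 and Igf2r, whose IP arrays lie below their unbound arrays, with Peg3 and Ndn, whose groups lie within 0.40 of each other.

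Cdkn1c encodes p57, an inhibitor of cyclin-dependent kinases that takes cells out of the cycle. It spans chr7:143458339-143461059 and had 1 probe set. All 3 IP arrays gave 1.98, the lowest value an IP array can take here, against 6.53, 7.27 and 7.75 on the unbound arrays. The IP arrays therefore give only a bound, and Cdkn1c was at least 4.53-fold lower in IP.

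Plagl1 encodes a zinc finger transcription factor, also called ZAC1, that restrains growth. It spans chr10:13090832-13131694. Its brightest probe set had 8.05, 8.87 and 8.53 in IP, against 11.76, 11.68 and 11.90 in unbound RNA. The difference was -3.30 ± 0.23 (SE), or 9.85-fold lower, with every IP array below every unbound array and still well above the limit. Its other 2 probe sets were below the limit on all arrays, and the mean over the 3 probe sets gave a difference of -1.24.

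Igf2r encodes the cation-independent mannose 6-phosphate receptor, which carries lysosomal enzymes and clears IGF2 from the cell surface. It spans chr17:12682406-12769706. Its brightest probe set had 4.47, 4.46 and 4.46 in IP, all below the limit, against 6.84, 6.54 and 6.45 in unbound RNA. With the biotin controls it was thus at least 3.05-fold lower in IP, a bound that other scalings did not keep. Its difference was -1.12 and -1.41 with array medians over all and over expressed probe sets. With quantile normalisation it was -0.81 and the call was lost. Its second probe set was below the limit on all arrays.

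Peg3 encodes a large zinc finger protein of the SCAN family with roles in maternal behaviour and cell death. It spans chr7:6703892-6730462. Its brightest probe set had 13.04, 13.11 and 13.11 in IP, against 13.65, 13.32 and 13.49 in unbound RNA, a difference of -0.40 ± 0.09 (SE). The groups did not overlap, yet the difference was under 2-fold and smaller in size than that of the median gene. Further probe sets gave -0.69 ± 0.14 and, with the widest spread, 6.21, 4.17 and 5.51 in IP, against 7.0, 6.76 and 6.68 in unbound RNA, a difference of -1.52 ± 0.58 (SE). The other 2 were below the limit.

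Ndn encodes necdin, a MAGE protein of differentiated neurons that lies in the mouse region matching the Prader-Willi syndrome locus. It spans chr7:62348277-62349928. Its brightest probe set had 15.44, 15.55 and 15.59 in IP, against 15.31, 15.32 and 15.39 in unbound RNA, a difference of 0.18 ± 0.05 (SE). Of its 8 probe sets, 4 others reached the limit, with differences of 0.23, 0.46, 0.18 and 1.14. The last had 14.10, 13.75 and 13.68 in IP, against 12.87, 12.46 and 12.78 in unbound RNA, and alone of the Ndn probe sets was called higher. The remaining 3 were below the limit on all arrays.

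Over all 26 probe sets of the 10 genes, 8 were below the limit on every array and 18 were tested. Of these, 8 were called higher, where 10.4% of all 16842 tested probe sets were, 4 were called lower, where 42.9% were, and 6 were not called. No gene had 1 probe set called higher and another called lower. For 9 of the 26 the 3 IP values were identical, and 5 tested ones had 2 identical IP values, those of Igf2r being below the limit. Such ties come from the deposited values and leave the IP spread of these probe sets no measure of replicate error. By brightest probe sets, every IP array lay above every unbound array in 6 of the genes, where 23.9% of all tested genes did so, and below in 4, where 59.1% did.

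**Figure D2:**
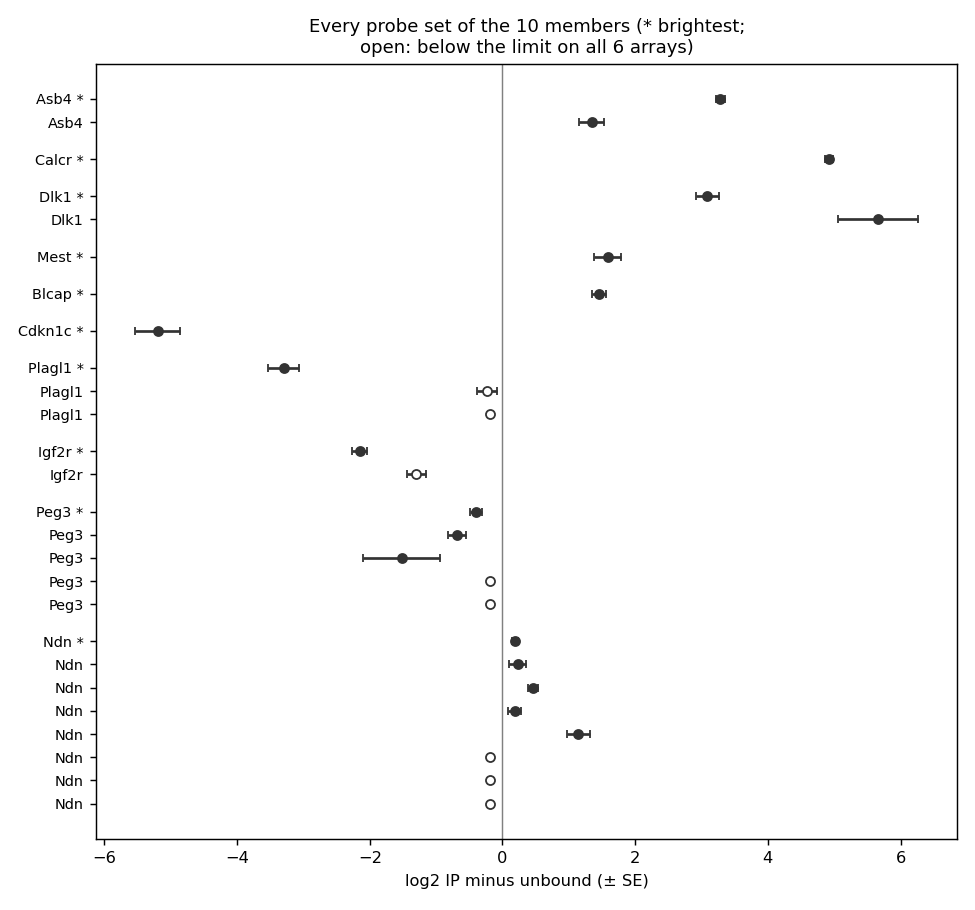
Log2 difference, IP minus unbound, with its SE (x axis) for each of the 26 probe sets (rows, grouped by gene, the brightest marked with an asterisk), open circles being below the limit on all 6 arrays, and values below the limit in 1 group plotted as measured. Asb4 and Dlk1 have both probe sets right of 0, while the Ndn probe sets that reach the limit run from 0.18 to 1.14 and those of Peg3 from -1.52 to -0.40. The SEs are those of the fit over single probe sets without the filter.

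The scaling between the groups shifts the differences of all genes, so each gene was also placed among all tested genes. Calcr, Cdkn1c and Igf2r were left out of this, since their differences rest on values below the limit. With the biotin controls, the share of tested genes with a lower difference was 99.2% for Asb4, 99.1% for Dlk1, 95.4% for Mest, 94.3% for Blcap, 73.1% for Ndn, 56.7% for Peg3 and 8.29% for Plagl1. Quantile normalisation, which does not shift all genes alike, gave 99.3% for Asb4, 98.3% for Dlk1, 96.0% for Mest, 86.7% for Blcap, 46.7% for Ndn, 31.3% for Peg3 and 3.99% for Plagl1. The median of all tested genes was -0.65 with the biotin controls, -0.41 with no scaling, 0.04 with quantile normalisation, 0.13 and 0.44 with array medians over expressed and over all probe sets, and -3.37 with the poly-A spike controls. Cdkn1c, Plagl1 and Igf2r were below 0 under each of these, and Asb4, Calcr, Dlk1, Mest and Blcap above 0 under each except the poly-A controls. Those controls gave 0.61 for Asb4, 0.41 for Dlk1, -1.09 for Mest and -1.22 for Blcap, and left Calcr untested. Peg3 came to 0.34 and 0.63 under the array medians and Ndn to -0.07 under quantile normalisation and -2.49 under the poly-A controls, so neither had a settled direction.

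**Figure D3:**
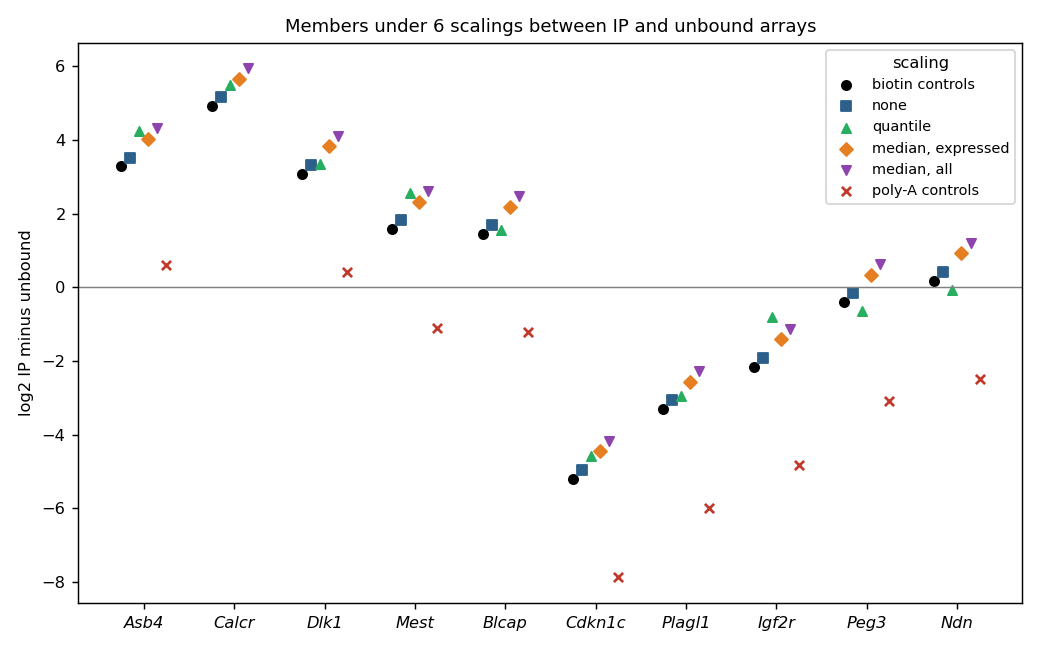
Log2 difference, IP minus unbound (y axis), of the brightest probe set of each gene (x axis) under 6 scalings between the groups (symbols). Only quantile normalisation could change the order of the genes, since the other scalings add the same amount to all of them, and values below the limit are plotted as measured. The poly-A controls lie below the others for every gene shown with them.

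The other imprinted protein-coding genes are described beside these 10. They are what was left once the 10 had been picked with their values known. Nothing is therefore read from a contrast between them and the 10. Of 54 on a list of such genes, 47 were on the arrays with a symbol of their own, and 16 of these were below the limit on all arrays, among them Peg10, Slc38a4 and Klf14. Among the 30 tested, 1 was called higher and 7 lower, 3.33% and 23.3%, where 10.4% and 41.1% of all tested genes were. That order turned with the scaling for the higher calls, which were 46.7% of these genes and 33.9% of all genes with array medians over all probe sets, 33.3% and 25.8% with medians over expressed ones, and 25.8% and 23.9% with quantile normalisation. Their median difference was -0.06, against -0.65 for all genes. The list also sorts genes by the allele they mainly use where they are imprinted, which was not measured here and need not hold in this tissue. Of 13 genes listed as paternal, 0 were called higher and 2 lower. Of 15 listed as maternal, 1 was higher and 5 lower, and none of the 2 with mixed use, Gnas and Grb10, was called. Dhcr7, an enzyme of cholesterol synthesis, averaged 8.87 ± 0.38 on the IP arrays and 7.85 ± 0.37 on the unbound arrays (SD, n = 3 each), a difference of 1.02 (limma, adjusted p = 0.0111). Its call was lost without IP replicate 3 (0.90), unbound replicate 1 (0.94) or unbound replicate 2 (0.92). Dcn, a matrix proteoglycan of vessels and meninges, came out lower in IP by at least 6.63-fold, and Gatm, an enzyme of creatine synthesis, fell by 3.97 on the log2 scale (limma, adjusted p = 5.05e-06). Pon2 fell by 3.35, Igf2, the growth factor that Igf2r clears, by 2.88, and Ppp1r9a, which encodes an actin-binding neurabin, by 2.33, a call lost with the mean over its probe sets (-0.90). Sfmbt2 was at least 2.17-fold lower and Copg2 fell by 1.25.

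Genes of a cluster did not always share a direction. On chromosome 12, Dlk1 was higher, while the noncoding RNA Meg3, whose span lies 77.7 kb away, had 8.95, 9.78 and 8.82 in IP, against 13.86, 13.38 and 13.57 in unbound RNA, and fell by 4.42 (limma, adjusted p = 2.21e-05). Its 10 other tested probe sets ran from -7.76 to -2.92. Rian, 140.6 kb from Dlk1, had 7.53, 7.71 and 7.53 in IP, against 11.16, 11.14 and 11.25 in unbound RNA, and fell by 3.59. Dlk1 is used from the paternal allele and both noncoding RNAs from the maternal allele. They were the 2 tested genes of the 6 imprinted noncoding RNAs on the arrays, and both were lower. The IP group holds ribosome-bound RNA. For a noncoding RNA, low ribosome binding and low expression in the serotonin neurons therefore cannot be told apart here.

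On chromosome 6, the spans of Calcr and Asb4 lie 1618.7 kb apart, and the tested imprinted genes between them were not called or were lower. Casd1 was at 0.63 and Sgce at -0.42, while Ppp1r9a and Pon2, which lies 85.0 kb from Asb4, were lower as given above. Of the 2 genes on either side of each of the 10, Pdk4, a kinase that shuts off pyruvate dehydrogenase, fell by 3.02 next to Asb4 and Vps50, an endosomal sorting gene, by 1.78 near Calcr. Near Mest, Copg2, a coatomer subunit gene whose span overlaps that of Mest, fell by 1.25 and Cep41 by 1.23, against the higher value of Mest itself. The calls of Vps50, Copg2 and Cep41 were lost under at least 2 of the other scalings.

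On chromosome 2, Nnat, which lies within the span of Blcap, had 7.06, 7.22 and 7.06 in IP, against 7.01, 8.45 and 8.38 in unbound RNA, and was not called (-0.83, limma, adjusted p = 0.0953). On chromosome 7, the tested paternally expressed neighbours of Ndn stayed near it, with Magel2 at 0.62 and Snrpn at 0.66, neither called. Mkrn3 and Peg12, 67.7 and 111.9 kb from Ndn, were below the limit on all arrays. Usp29, 0.1 kb from Peg3, was at 0.02. Around Cdkn1c, which was at the floor in IP, Nap1l4 at -0.05, Cd81 at -0.07, Osbpl5 at 0.22 and Tssc4 at 0.62 were not called, Dhcr7 was higher and Igf2 lower. Near Plagl1, which was lower, the splicing factor gene Sf3b5 rose by 1.33 (limma, adjusted p = 0.000198), a call lost with the mean over its probe sets (0.82). Gnas, which encodes the stimulatory G protein subunit from several promoters, was at 0.36 on its brightest probe set. Its other 2 tested probe sets were at -4.58 and 2.60.

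**Figure D4:**
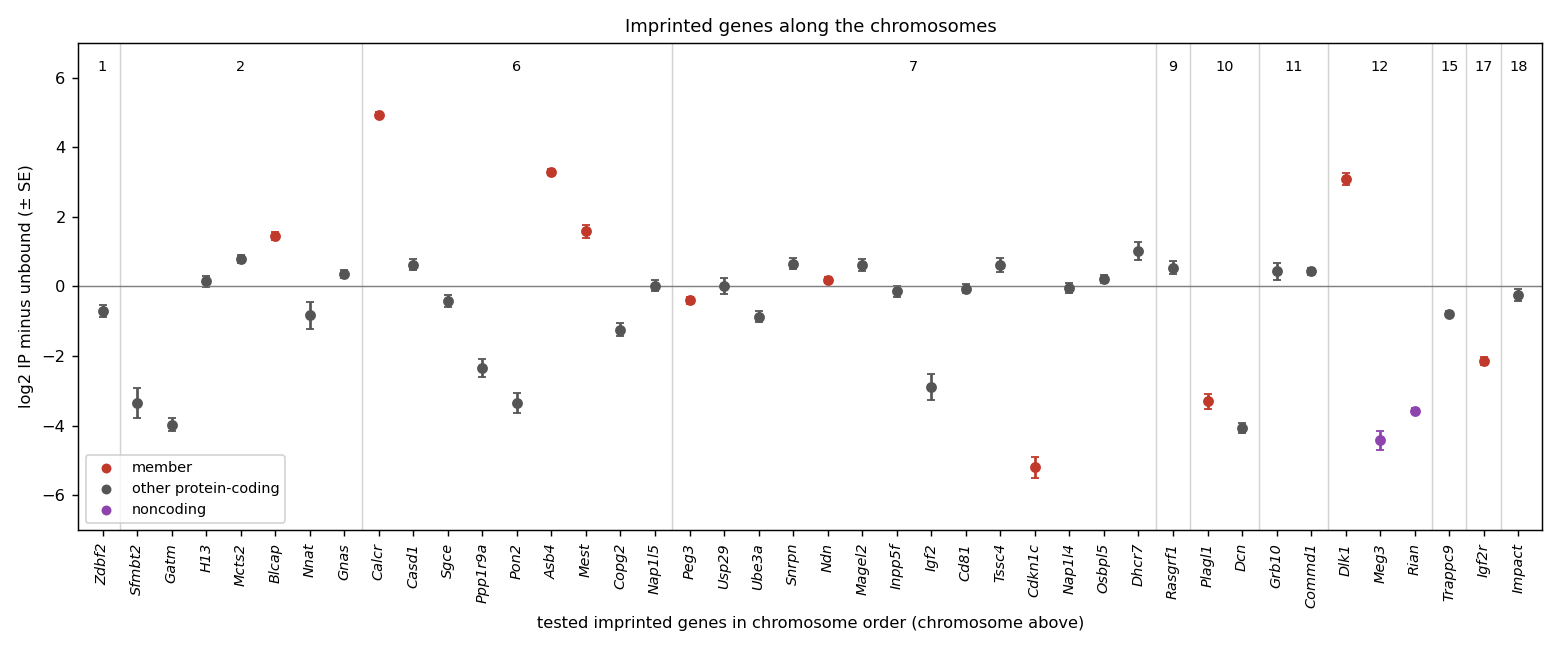
Log2 difference, IP minus unbound, with its SE (y axis) of every tested imprinted gene in chromosome order (x axis, chromosome number above), with the 10 described genes in red, other protein-coding genes in grey and noncoding RNAs in purple, and values below the limit in 1 group plotted as measured. Calcr and Asb4 stand above the genes between them on chromosome 6, and Dlk1 stands at 3.09 beside Meg3 at -4.42 and Rian at -3.59 on chromosome 12. The SEs are those of the fit over tested genes and differ from those printed in the text for the genes in red.

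Of 7 tested genes of calcitonin and amylin signalling, which work with Calcr, 1 was higher and 4 were lower, 14.3% and 57.1%, where 10.4% and 41.1% of all tested genes were. Calcrl, the related receptor for CGRP and adrenomedullin, was lower by at least 4.24-fold, and Ramp1, its partner for CGRP, had 6.56 on every IP array, against 9.15, 9.12 and 9.45 in unbound RNA, and fell by 2.68 (limma, adjusted p = 3.67e-06). The tied IP values of Ramp1 are no measure of replicate error, which limits what that p-value can show. Ramp3, which pairs with the calcitonin receptor to form an amylin receptor, had 7.18, 6.81 and 6.81 in IP, against 6.66, 4.79 and 5.37 in unbound RNA, a difference of 1.33 (limma, adjusted p = 0.0392). The Ramp3 groups did not overlap, but the call was lost without any 1 of 5 of the 6 arrays, with adjusted p from 0.0569 to 0.14, and with no filter on dim genes. Calcb, a CGRP precursor gene, fell by 2.49.

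Among the 7 tested genes of the ASB ligase and the insulin receptor substrates, 2 were higher and 3 lower, 28.6% and 42.9%, beside 10.4% and 41.1% of all genes. Irs4, a docking protein of insulin and IGF receptors, had 12.57, 12.53 and 12.75 in IP, against 8.68, 8.62 and 8.52 in unbound RNA, and rose by 4.01 (limma, adjusted p = 5.76e-07). IRS4 is a known target of ASB4 in cell studies. Elob, which together with Eloc links SOCS boxes to the cullin, rose by 1.86, while Eloc was at 0.64 and not called. Cul5, the cullin itself, fell by 2.53 on its brightest probe set, while its 2 others were at -0.92 and -0.58. Of the other ASB genes, 6 of 17 were tested, with 0 higher and 3 lower (50%, beside 41.1% of all genes), namely Asb13 (-1.88), Asb8 (-1.64) and Asb1 (-1.02). The Asb8 and Asb1 calls were lost under at least 3 of the other scalings, and that of Asb13 with array medians over all probe sets (-0.85), where none of the 3 was called. Asb8 also lost its call without any 1 of the unbound arrays (adjusted p from 0.0539 to 0.0718 in limma).

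For Dlk1, 12 Notch pathway genes were tested, with 2 higher and 8 lower, 16.7% and 66.7%, beside 10.4% and 41.1% of all genes. Notch2 was at least 11.6-fold lower, Adam17, the protease that cuts Notch and DLK1, at least 4.99-fold, and Jag1 at least 2.23-fold. The ligand genes Jag2 and Dll1 rose by 1.15 (limma, adjusted p = 2.93e-05) and 1.08 (limma, adjusted p = 0.000165). Without IP replicate 1, Jag2 came to 0.98, under the 2-fold threshold, and lost its call. Notch2 was below the limit on all IP arrays.

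For Cdkn1c, 10 genes of cyclin-dependent kinases, cyclins and inhibitors were tested, with 1 higher and 5 lower, 10% and 50%, beside 10.4% and 41.1% of all genes. Cdk6 was at its floor of 1.98 on all IP arrays, as Cdkn1c was, and was at least 2.68-fold lower. Ccne2 and Ccnd1 fell by 2.32 and 2.17. Cdkn2d, the inhibitor p19, had 10.20, 10.07 and 9.97 in IP, against 8.05, 8.16 and 7.99 in unbound RNA, and rose by 2.01 (limma, adjusted p = 6.32e-06).

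For Igf2r, 12 genes of mannose 6-phosphate sorting and IGF signalling were tested, with 1 higher and 9 lower, 8.33% and 75%, beside 10.4% and 41.1% of all genes. In IP, Igf1 was lower by at least 13.9-fold, Igfbp7 at least 6.82-fold and Igfbp3 at least 4.76-fold. M6pr, the other mannose 6-phosphate receptor, had 9.84, 9.31 and 9.31 in IP, against 9.46, 8.89 and 9.19 in unbound RNA, and was not called. Gnptg, a subunit of the enzyme that makes the mannose 6-phosphate tag, was at 1.11 (limma, adjusted p = 0.0332), a call lost in 5 of the 6 fits without 1 array and with no filter on dim genes.

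The remaining relatives were few. Plagl2, a relative of Plagl1, was at the floor in IP and at 5.05, 5.11 and 5.11 in unbound RNA, at least 1.06-fold lower. Of the MAGE genes outside imprinted clusters, 5 were tested and none was called, with Maged1 at 0.60 (limma, adjusted p = 0.0959) and Magee1 at -0.23 (limma, adjusted p = 0.416). Of the 3 genes of the adenosine deaminase family, to which the editors of Blcap transcripts belong, 2 were lower (66.7%, beside 41.1% of all genes). Adar was at -0.88 and not called. Adarb2 was at least 8.24-fold lower and Adarb1 fell by 2.04, and 0 were higher.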

How the data were processed

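RNA of 3 IP and 3 unbound samples was amplified from 20 ng each and hybridised to Affymetrix mouse arrays, per the labels' protocols. Each array had 45101 deposited log2 values. The authors used GCRMA, a background correction, quantile normalisation and probe set summary, applied within each group, per the series' design text and the submitters' processing notes. No source used here gives its version. The log2 scale was read from the range of the values. Because each group was normalised by itself, the level of IP against unbound values rests on a scaling chosen afterwards. Here -0.23, the mean group difference over 18 biotinylated hybridisation controls, was added to each IP value, as the design text recommends.

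Probe sets were named from the platform annotation. Of them, 34958 had 1 gene symbol, 932 several and 9160 none. A gene was read by its brightest probe set and tested where it reached a log2 value of 5 on at least 3 of the 6 arrays. Limma 3.58.1 in R 4.3.3 (lmFit and eBayes, two-sided, group alone) was run over all 10582 genes with Benjamini-Hochberg adjustment. The SEs printed for the 10 genes come instead from a fit over single probe sets without the filter. For the brightest probe sets, the fit over tested genes gave larger SEs for Asb4 (0.09), Blcap (0.12), Peg3 (0.10) and Ndn (0.08). It gave smaller ones for Dlk1 (0.16), Mest (0.19) and Plagl1 (0.21). A gene was called, and is said to have risen or fallen, at an adjusted p under 0.05 and at least 2-fold. Where a fold is written as at least a number, it counts each array of the dimmer group at no less than 5. Such a bound holds for the scaling by the biotin controls only. The fit was tested on simulated data. The number of arrays limits the precision. Replicates are biological, each a pool, per the labels. Gene spans, neighbours and promoters are RefSeq's, and the position of a probe set within its gene was not used here.

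The members and all gene lists were chosen with earlier results of these data known. Named are every member, the 6 largest called changes each way among other imprinted genes, up to 3 called genes of each other list (the 2 brightest where none was called), and called genes among the 2 on each side of a member. Other genes, given to make a count or a cluster specific, were chosen after their values were seen. Slc22a3 and Fev had no probe set of their own and were not analysed here. Alternatives were other scalings, filters, probe set rules, leaving out each array, and the replicate pairs as a block.

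The label of each unbound sample names the replicate it comes from. Deviations from the group means correlated at 0.27, 0.16 and 0.10 within the like-numbered pairs, and IP replicate 3 correlated at 0.21 with unbound replicate 2. By the rule of over 0.1 in every pair the numbers pair the samples. The pair of replicates 3 passed only narrowly (0.1045), and the rule does not compare like-numbered with unlike-numbered pairs.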

Additional observations from a re-analysis of the deposited data

Results flagged for a closer look

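A probe set shared by Snurf and Snrpn lies outside the comparisons above because it carries more than 1 gene symbol. Its log2 values were 9.67, 9.55 and 9.55 in IP, against 7.46, 7.86 and 8.12 in unbound RNA, a difference of 1.78, with every IP array above every unbound array. The 4 other shared Snurf and Snrpn probe sets that reached the limit had differences of 0.31 to 0.53, and the Snrpn probe set with its own symbol had 0.66. Both genes lie in the Ndn region of chromosome 7.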

How the results depend on the processing

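The main split of 1104 higher and 4354 lower genes became 1500 and 3746 with no scaling, 3581 and 2057 with array medians over all probe sets, 2727 and 2592 with medians over expressed ones, 2514 and 2473 with quantile normalisation, 35 and 9993 with poly-A controls, and 1748 and 7233 probe sets when each was tested by itself. The mean of a gene's probe sets gave 889 and 3178 genes, and no filter 1263 and 5395. For the 10 genes, 5 higher and 3 lower became 0 and 7 with poly-A controls, 6 and 3 with medians over all probe sets (Ndn at 1.21), 5 and 2 with quantiles (Igf2r lost), 5 and 2 of 9 tested with the mean of probe sets, 1 lower of 8 tested with the limit at 7, and 8 higher among single probe sets. They remained 5 and 3 without any 1 array. For the other imprinted genes, 1 higher became 2 with no scaling, 14, 10 and 8 with the medians and quantiles, 0 with poly-A controls, 3 with no filter and 5 among single probe sets, and 7 lower became 30 with poly-A controls and 14 among single probe sets. Without 1 array, their higher count ran from 0 to 1 and their lower count from 7 to 9.

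Directions turned for Magee1 (0.0060 with no scaling, 0.80 and 0.51 with the medians, 0.20 with quantiles and -0.63 to 0.031 without 1 array, above 0 without IP replicate 2), for Asb1 (0.013 with the median of all probe sets, 0.025 with the mean per gene) and for Cep41 (0.058 with quantiles). With poly-A controls they turned for Mest (-1.09), Blcap (-1.22), Dhcr7 (-1.65), Elob (-0.82), Maged1 (-2.08), Sf3b5 (-1.35), Jag2 (-1.53), Dll1 (-1.60) and Cdkn2d (-0.67). The cause was not tested. With the replicate pairs as a block, 1108 genes were higher and 4360 lower, the 10 genes stayed at 5 and 3, other imprinted genes at 1 and 7, and no call of a named gene changed. Values near the limit of 5 and tied IP values limit what the spread can show.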
